A study of Homo sapiens with 96 samples.

Results

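The 5 ETS genes described here, ETV1, ETV4, ETV5, ETS1 and ETS2, were the rows of the count table that carry these symbols, out of 44659 gene entries. All 5 passed the filter on low counts, as did 14948 entries in all. They were followed over 96 libraries of A375, a human skin melanoma cell line that carries an activating BRAF mutation. RNA of the cytoplasm was measured with QuantSeq, which starts reverse transcription at the poly(A) tail and so reads the 3′ end of a transcript. Cells were kept for 18 h in DMSO, the solvent control, or in 500 nM vemurafenib plus 500 nM cobimetinib, inhibitors of BRAF and of MEK that are together called MAPKi. They then received 1 of 4 treatments. These were vehicle, cycloheximide at 100 µg/ml (CHX, a blocker of translation), triptolide at 25 µM (T, a blocker of transcription, spelled tryptolide in the labels) or both (TCHX), where cycloheximide preceded triptolide by 5 min. Harvest was at 0, 1, 3 or 5 h, which gave 32 groups of 3 libraries. All groups share 1 cell line, so that the 3 libraries of a group stand for that line alone. The 4 times were prepared as separate but identical batches of cells, so that time and batch cannot be told apart. The labels do not say whether they came from separate cultures, and p-values measure the spread between these libraries, which may be technical.

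ETS factors bind DNA through the ETS domain, which recognizes a GGAA core. ETV1, ETV4 and ETV5 form the PEA3 subfamily, whose transcription is held back by the repressor Capicua (CIC) and released when ERK inactivates CIC, and whose proteins are marked for degradation by the ubiquitin ligase COP1 with its partners DET1, DDB1 and CUL4A. ETS1 and ETS2 are close relatives of each other, and ERK phosphorylates both proteins next to their Pointed domain, which raises their activity. In melanoma, ETV1 is known as a lineage oncogene that works with MITF, the master regulator of melanocytes.

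The libraries held 2381351 to 12520154 counts each (median 7143396). Levels are given as CPM, the usual depth-normalized counts, after TMM scaling of the library sizes, unless another scale is named, and floors of 3 counts per library cover counting error only, since no molecular identifiers were described. The markers of the melanocyte lineage SOX10, MITF and S100B were present at 203 ± 48.4, 250 ± 85.8 and 303 ± 21.3 CPM in the DMSO vehicle libraries (SD, n = 12), while MLANA and TYR were near 0 at 0.177 ± 0.264 and 0.254 ± 0.297 CPM (SD, n = 12). In the vehicle arm the 8 lineage markers together had 619.6 to 1007 CPM with DMSO and 2089 to 3703 CPM with MAPKi, so their sum moved with MAPKi. Most of the MAPKi sum was DCT, which went from 49.9 ± 8.27 to 1939 ± 388 CPM (SD, n = 12). S100B was lower in MAPKi, at 221.9 ± 25.95 CPM, and TYR stayed near 0, at 0.265 ± 0.255 CPM (SD, n = 12). The part of these markers in the results on the ETS genes was not tested. The 6 markers of other cell types summed to at most 2.64 CPM in DMSO and 3.04 CPM in MAPKi in the same arm, and CD3E had no count in any library. In bulk RNA of this kind, fewer cells with a transcript and less of it per cell cannot be told apart.

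The genes lie at separate places in the genome. In GRCh38, ETV1 is on chromosome 7 (13891229 to 13991425, minus strand), ETV4 on chromosome 17 (43527844 to 43579620, minus strand), ETV5 on chromosome 3 (186046314 to 186110318, minus strand), ETS1 on chromosome 11 (128458761 to 128587558, minus strand) and ETS2 on chromosome 21 (38805183 to 38824955, plus strand). ETV1 overlaps no other gene in GENCODE. ETV4 lies inside DHX8, which is on the other strand, and the far end of ETV5 overlaps DGKG on its own strand. ETS1 and ETV5 each hold an antisense RNA and a small RNA, and ETS2 overlaps a long noncoding RNA on the other strand. Whether the counting used the strand is not given in the sources used here, so that counts of the 4 genes with an overlap are uncertain where the other gene is transcribed. DHX8 had 169 to 823 counts per library and DGKG 1 to 105, whereas ETS1-AS1 had at most 1 count. DHX8 stood at a mean of 50.1 CPM in DMSO and 62.1 CPM in MAPKi in the vehicle arm, and DGKG at 7.66 and 2.09 CPM.

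RefSeq promoter windows, from 250 bases before to 50 bases after a transcription start (GRCh38.p14), were at hand for 2 of the 5 genes, with 6 windows for ETV1 and 2 for ETS2. They were searched on both strands for the 2 octamers that CIC is known to bind, TGAATGAA and TGAATGGA. At least 1 of them was present in 2.63% of the 35116 windows of all genes. Of the ETV1 windows 1 held an octamer, and of the ETS2 windows none did. The octamer of ETV1 begins 125 bases before the start site of that window. The window of ETV1 is shown because it bears the octamer (in capitals), and the first window of ETS2 is shown as one of a gene whose windows have no such match.
ETV1 chr7:13991376-13991675, minus strand: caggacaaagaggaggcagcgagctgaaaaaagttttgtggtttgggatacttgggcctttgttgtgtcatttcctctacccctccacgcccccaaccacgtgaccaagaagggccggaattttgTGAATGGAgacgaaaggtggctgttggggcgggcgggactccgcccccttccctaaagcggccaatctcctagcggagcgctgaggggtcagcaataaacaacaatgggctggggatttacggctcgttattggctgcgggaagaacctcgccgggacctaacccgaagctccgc
ETS2 chr21:38804933-38805232, plus strand: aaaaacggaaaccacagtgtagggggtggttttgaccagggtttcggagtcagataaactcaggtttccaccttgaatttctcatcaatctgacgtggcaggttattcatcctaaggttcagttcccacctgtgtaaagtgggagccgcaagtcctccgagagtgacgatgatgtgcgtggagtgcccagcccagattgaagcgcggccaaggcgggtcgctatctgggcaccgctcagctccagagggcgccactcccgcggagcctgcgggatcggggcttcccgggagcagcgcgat
The letters CCGGAAG, a strong ETS site that 10.3% of all windows hold on either strand, were in none of these 8 windows, nor was the AP-1 site TGANTCA, which 7.71% hold. A match of letters is a description of the window and not a bound site.

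The first comparison asked how the 5 genes differ at 0 to 5 h after 18 h of MAPKi when neither transcription nor translation is blocked. In the vehicle arm over all 4 times, the 3 PEA3 genes were far lower in MAPKi than in DMSO and ETS2 was moderately lower, while ETS1 was higher. All 5 genes passed the test (edgeR, adjusted p under 0.05), with ETS1 higher and the other 4 lower, against a background of 69.0% of all genes tested (35.8% higher and 33.1% lower). The 12 MAPKi libraries did not overlap the 12 DMSO libraries for any of the 5, which was the case for 23.4% of all genes (10.2% with MAPKi higher and 13.2% with MAPKi lower).

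**Figure D1:**
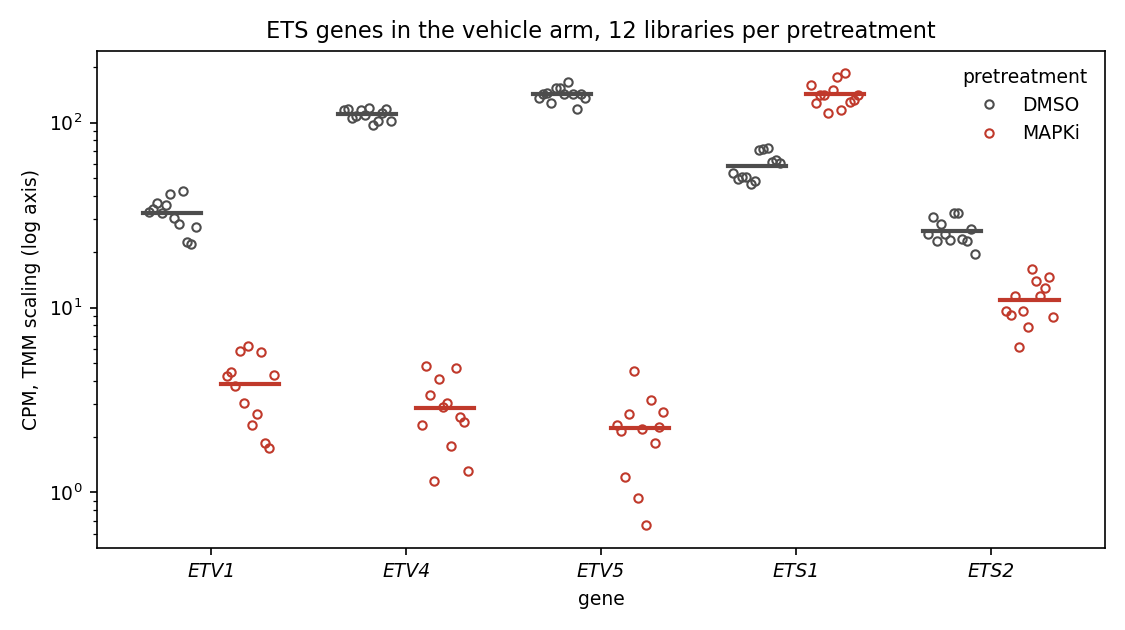
Level of each ETS gene in the vehicle arm as CPM after TMM scaling, on a log axis. Each circle is 1 library (12 per pretreatment, 0 to 5 h from left to right), and bars are means. ETV5 falls from 118 to 165 CPM in DMSO to 0.665 to 4.57 CPM in MAPKi, and ETS1 alone is higher in MAPKi.

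ETV5 showed the largest difference. At 0 h its level was 135, 143 and 144 CPM in DMSO and 2.33, 2.15 and 1.21 CPM in MAPKi. Over all 12 vehicle libraries it ran from 118 through a median of 143 to 165 CPM in DMSO, and from 0.665 through 2.24 to 4.57 CPM in MAPKi. No MAPKi library came near the lowest DMSO library, and the mean in MAPKi was 1.57% of that in DMSO. On the log2 scale this was a change of −6.01 with a standard error of 0.13 (edgeR adjusted p 1.28e-53).

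ETV4 came next. Its level at 0 h was 117, 119 and 106 CPM in DMSO and 2.33, 4.83 and 3.37 CPM in MAPKi. The 12 vehicle libraries ran from 96.6 through a median of 111 to 120.4 CPM in DMSO, and from 1.16 through 2.73 to 4.83 CPM in MAPKi. The groups lie far apart at every time, and 2.60% of the DMSO mean was left. The log2 change was −5.29 with a standard error of 0.12 (edgeR adjusted p 1.72e-52).

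ETV1 had a lower level in DMSO and a smaller difference. At 0 h it had 32.8, 34.3 and 36.6 CPM in DMSO and 4.25, 4.47 and 3.77 CPM in MAPKi. In the 12 vehicle libraries it ran from 22.1 through a median of 32.7 to 42.9 CPM in DMSO, and from 1.74 through 4.01 to 6.19 CPM in MAPKi. The log2 change was −3.05 with a standard error of 0.16 (edgeR adjusted p 7.19e-29), and the mean was 11.9% of that in DMSO.

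ETS2 fell by 1.27 on the log2 scale, with a standard error of 0.11 (edgeR adjusted p 4.27e-17). Its level at 0 h was 24.9, 30.98 and 22.9 CPM in DMSO and 9.60, 9.12 and 11.6 CPM in MAPKi. The vehicle libraries ran from 19.5 through a median of 24.9 to 32.6 CPM in DMSO, and from 6.12 through 10.6 to 16.2 CPM in MAPKi. The highest MAPKi library thus stood just under the lowest DMSO library, and the MAPKi mean was 42.2% of the DMSO mean.

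ETS1 went the other way. It had 53.1, 49.3 and 50.8 CPM at 0 h in DMSO and 159, 128 and 140.1 CPM in MAPKi. In the vehicle arm it ran from 46.5 through a median of 56.7 to 72.7 CPM in DMSO, and from 112 through 141 to 185 CPM in MAPKi. Every MAPKi library was above every DMSO library, with a mean 2.45 times as high. The test put the log2 change at 1.31 (standard error 0.07, edgeR adjusted p 1.45e-30).

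The change was present at each harvest time on its own, where 45.9% of all genes passed at 0 h, 47.3% at 1 h, 45.7% at 3 h and 45.9% at 5 h. The log2 change of ETV5 lay between −6.22 at 0 h and −5.82 at 5 h, that of ETV4 between −4.97 at 3 h and −5.76 at 5 h, and that of ETV1 between −2.81 at 1 h and −3.19 at 3 h. For ETS2 it was −1.37 at 0 h, −1.70 at 1 h, −1.08 at 3 h and −0.93 at 5 h. ETS1 had 1.48 at 0 h and 1.13 at 5 h. The lowest counts behind these values were in MAPKi, where ETV5 had 0 to 41 counts per library over all arms, ETV4 7 to 82 and ETV1 4 to 80. ETV5 was at or under 3 counts in 5 of the 48 MAPKi libraries, so that differences among the MAPKi groups were barely detectable for it at this depth.

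**Figure D2:**
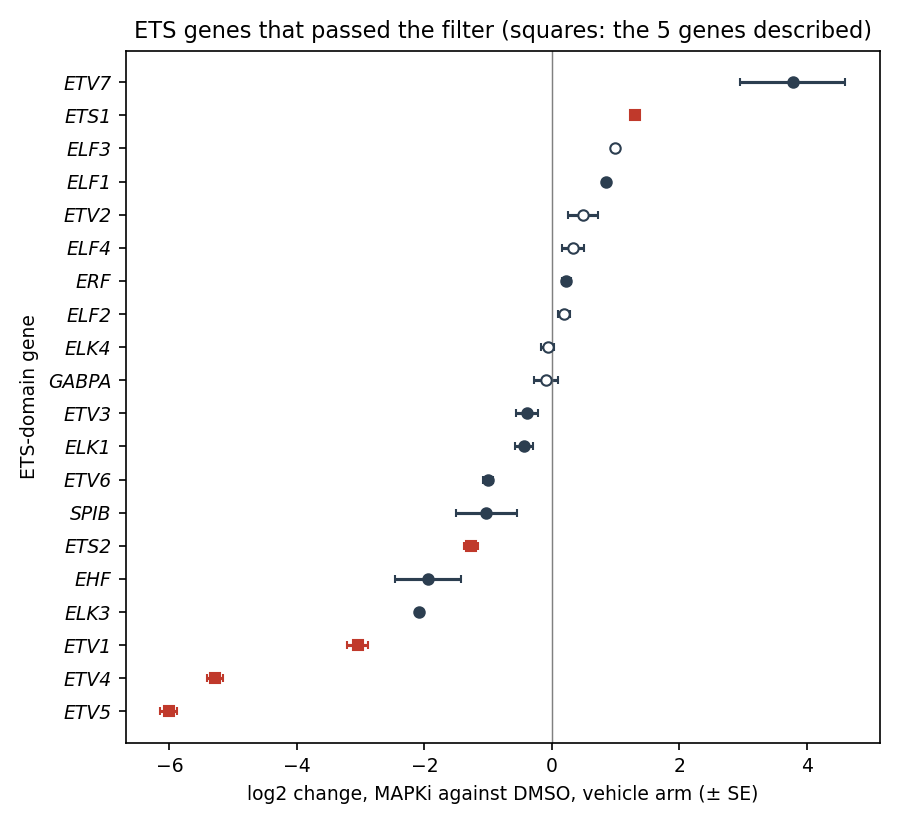
Log2 change of the ETS genes that passed the filter, MAPKi against DMSO in the vehicle arm, with standard errors. Squares are the 5 genes described here, circles the other family members, and filled symbols mark an adjusted p under 0.05. ELF3 has no standard error. ETV5 and ETV4 lie furthest to the left at −6.01 and −5.29, and ETV7 and ETS1 furthest to the right.

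Of the 23 other genes of the ETS family 15 passed the filter, and 9 of these were called, 3 higher and 6 lower in MAPKi, where 69.0% of all genes were called. Their median log2 change was −0.07 against 0.05 over all genes. ELK3, a ternary complex factor that works with SRF, had 83.8 ± 4.29 CPM in DMSO and 20.1 ± 3.94 CPM in MAPKi (SD, n = 12), with a log2 change of −2.08 (edgeR adjusted p 1.14e-45). EHF, an epithelial ETS factor, had −1.95 (edgeR adjusted p 0.000611) at no more than 14 counts in a library. SPIB, a factor of lymphoid cells, had −1.03 (edgeR adjusted p 0.0492) at no more than 16 counts. ETV7 was called higher (edgeR adjusted p 5.2e-05), from at most 2 counts in any DMSO vehicle library to at most 13 in MAPKi, so no fold is given.

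Of the genes that act on the PEA3 factors, all 9 CIC and COP1 regulators passed the filter, and 3 were higher and 4 lower in MAPKi. These 7 of 9 stand beside the 69.0% called over all genes (35.8% higher and 33.1% lower). CIC, the repressor, was at 22.8 ± 3.36 CPM in DMSO and rose to 51.9 ± 8.81 CPM in MAPKi (SD, n = 12), by 1.18 on the log2 scale (edgeR adjusted p 3.32e-23). TRIB1 and TRIB2, pseudokinases that bring substrates to COP1, were lower by −2.56 and −2.25 on the log2 scale (edgeR adjusted p 1.02e-33 and 2.78e-39), with TRIB1 going from 43.6 ± 6.97 to 7.73 ± 3.08 CPM and TRIB2 from 199 ± 38.5 to 43.3 ± 13.7 CPM (SD, n = 12 each). CUL4A, the cullin of the ligase, had −0.72 (edgeR adjusted p 1.36e-23). COP1 itself had −0.08 and did not pass (edgeR adjusted p 0.439).

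Upstream of the ETS genes, 13 of the 15 genes of the RAS-ERK cascade passed the filter, and 8 were higher and 2 lower, that is 10 of 13 beside 69.0% of all genes. The scaffold genes KSR2 and KSR1 had log2 changes of 3.08 and 1.16, the ribosomal S6 kinase gene RPS6KA2 0.88 and MAPK3, which encodes ERK1, 0.70 (edgeR adjusted p 3.4e-19, 1.96e-12, 5.5e-15 and 1.08e-12). KSR2 had only 1 to 11 counts per library in DMSO vehicle. Beside the ETS genes, 16 of 17 other ERK output genes passed the filter, of which 15 were lower and none higher, where 33.1% of all genes were lower, with a median log2 change of −2.90. The feedback inhibitors SPRY4, DUSP6 and SPRY2 and the immediate-early factor EGR1 changed most, by −7.82, −7.43, −5.94 and −5.56 (edgeR adjusted p 5.07e-54, 1.47e-51, 2.46e-46 and 3.35e-45). Few counts were left for them in MAPKi vehicle, at most 8, 60, 23 and 31 per library in the same order. The 15 ERK output genes called lower ran from −7.82 to −1.33, and the one that did not pass was at 0.009. ETV5, ETV4 and ETV1 lay within the range of these 15 genes. ETS2, at −1.27, lay just outside it, and ETS1 changed in the other direction. Among the lineage markers, 6 of the 7 tested were higher and 1, S100B, lower at −0.45 (edgeR adjusted p 1.03e-12). DCT was at 5.28, PMEL at 3.54, TYRP1 at 3.08 and MLANA at 2.42 on the log2 scale (edgeR adjusted p 8.05e-54, 1.35e-25, 6.65e-07 and 0.001). In the vehicle arm TYRP1 had at most 9 counts in a DMSO library and 26 in a MAPKi library, and MLANA 8 and 17, so their folds rest on few counts. Of the markers of other cell types 2 were tested and neither passed.

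The background for CHX, T and TCHX was taken from the vehicle arm over time and from the inhibitor arms at 0 h. From 0 to 5 h in vehicle none of the 5 genes passed in either pretreatment, where 1.06% of all genes passed in DMSO and 3.34% in MAPKi (edgeR). Among the 5 genes 1 had an unadjusted p under 0.05, ETV4 in MAPKi, with a log2 change of −0.75 (edgeR adjusted p 0.273). ETS1 was not flat in DMSO vehicle between these times. It had 70.9, 72.1 and 72.7 CPM at 3 h and 61.0, 62.7 and 60.3 CPM at 5 h, all above the 46.5 to 53.1 CPM of the 0 and 1 h libraries. In the inhibitor arms at 0 h none of the 5 genes passed against vehicle, nor did any of the 14948 genes in these 3 comparisons (edgeR, a background of 0%). DESeq2 called 1 gene with CHX, 1 with T and none with TCHX. In edgeR with no filter on low counts, 3, 92 and 66 genes were called in the same order. Leaving out replicate 3 gave 3 genes with T. Without adjustment, p under 0.05 was reached by 220 higher and 221 lower genes with CHX, by 428 and 441 with T and by 350 and 309 with TCHX. Of the 5 genes, ETS1 in the T arm was among them, with a log2 change of −0.22.

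The cycloheximide arm asked how the mRNAs respond when translation is blocked but transcription goes on. At 3 to 5 h in DMSO, ETS1 and ETS2 rose and ETV4 and ETV5 fell slightly, while ETV1 did not pass. That is 4 of 5 genes against a background of 31.7% of all genes (18.3% higher and 13.4% lower). At 1 h none of the 5 genes passed in either pretreatment, where 0.0736% of all genes did in each.

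ETS1 had 100.1, 98.1 and 87.0 CPM at 3 h and 108, 113 and 124 CPM at 5 h with CHX in DMSO. The highest vehicle library of the same times, given above, had 72.7 CPM, so that the arms did not overlap. For this and later gaps between small sets of libraries, the share of all genes with such a gap was not counted. The log2 change over both times was 0.66 with a standard error of 0.09 (edgeR adjusted p 1.2e-08). ETS2 had 40.3, 31.9 and 34.3 CPM at 3 h and 45.1, 43.0 and 35.2 CPM at 5 h with CHX, against 32.4, 32.6 and 23.4 CPM and 23.0, 26.4 and 19.5 CPM in vehicle. The libraries overlapped at 3 h and not at 5 h, and the log2 change was 0.56 with a standard error of 0.15 (edgeR adjusted p 0.00196).

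ETV5 had 113, 125 and 119 CPM at 3 h and 96.3, 109.5 and 89.8 CPM at 5 h with CHX, against 142, 165 and 143 CPM and 118, 143 and 136 CPM in vehicle. Every CHX library lay below every vehicle library of its own time. Its log2 change was −0.38 with a standard error of 0.13 (edgeR adjusted p 0.0154). ETV4 had −0.33 with a standard error of 0.12 (edgeR adjusted p 0.0326), with 84.8, 90.9 and 86.9 CPM at 3 h and 93.0, 85.4 and 77.2 CPM at 5 h, again below the vehicle libraries of 96.6 CPM or more. ETV1 moved by −0.26 (edgeR adjusted p 0.33). Without replicate 1 the calls of ETS2, ETV4 and ETV5 were lost (edgeR adjusted p 0.0598, 0.209 and 0.0919), and without replicate 3 those of ETV4 and ETV5 (0.0918 and 0.0859 in edgeR).

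**Figure D3:**
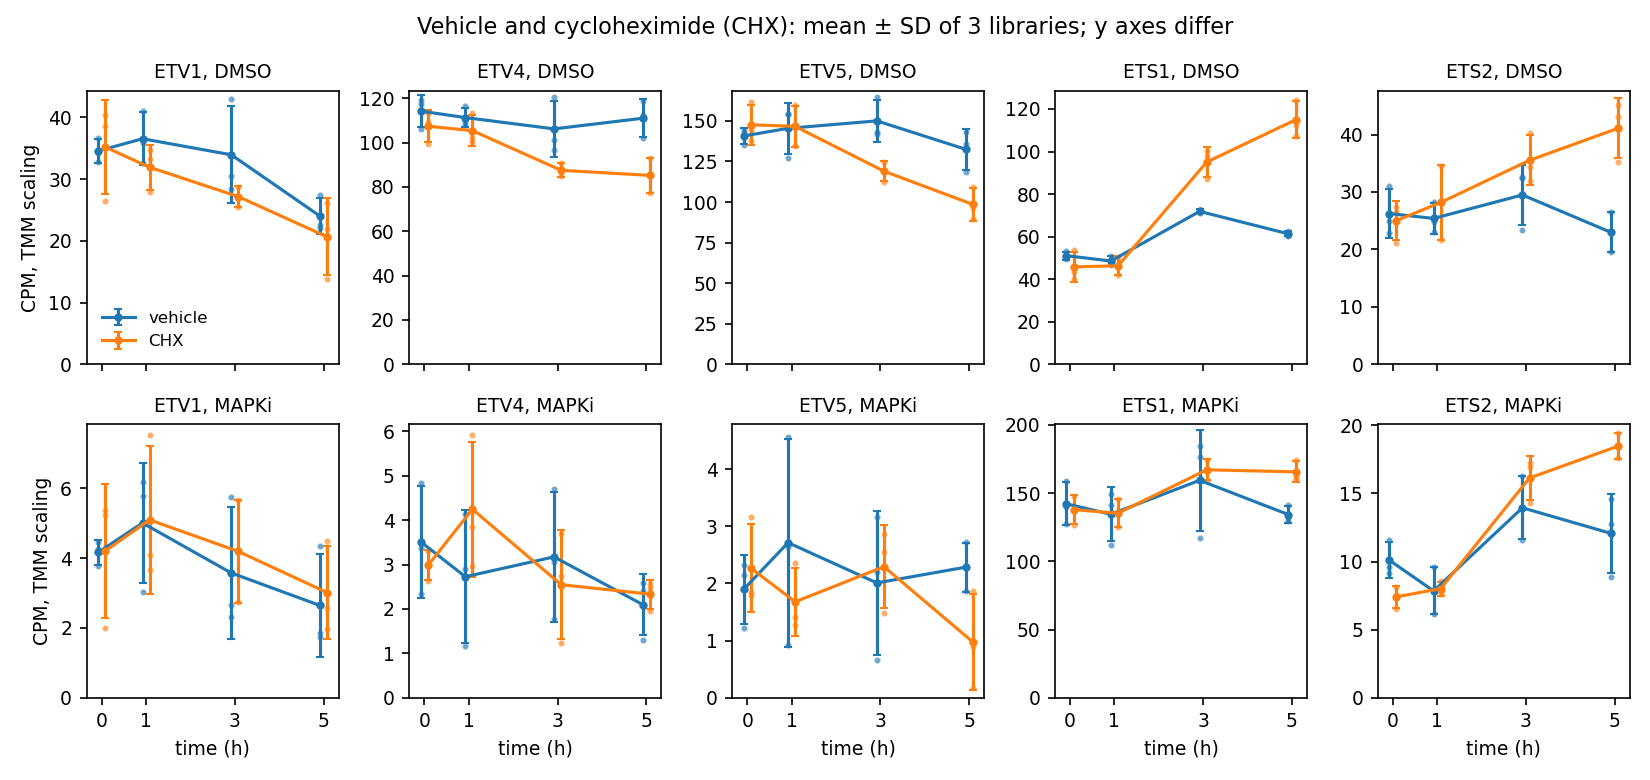
Level (CPM, TMM scaling) of the 5 genes over time with vehicle (blue) and cycloheximide (orange), DMSO above and MAPKi below, with a y axis of its own in each panel. Large points and bars are means ± SD of 3 libraries and small points the libraries. In DMSO, ETS1 rises to 115 CPM and ETS2 to 41.1 CPM at 5 h with CHX, and ETV4 and ETV5 go down.

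In MAPKi, ETS2 was the 1 gene of the 5 that passed at 3 to 5 h, where 29.8% of all genes did. It had 14.3, 17.2 and 16.9 CPM at 3 h and 19.4, 17.6 and 18.4 CPM at 5 h with CHX, against 16.2, 14.0 and 11.6 CPM and 12.7, 14.6 and 8.87 CPM in vehicle. The arms overlapped at 3 h and not at 5 h. The log2 change was 0.42 with a standard error of 0.16 (edgeR adjusted p 0.0316), and the call was lost without replicate 1 (0.068) and without replicate 3 (0.337) in edgeR. ETV5 was called lower in its place without replicate 1, at −1.15, and ETV1 higher without replicate 3, at 0.92 (edgeR adjusted p 0.0471 and 0.0336). ETS1, already raised by MAPKi, had 168, 159 and 174 CPM at 3 h and 162, 174 and 160.4 CPM at 5 h with CHX. In vehicle it ran from 117 to 184.5 CPM at 3 h and from 129.6 to 141.2 CPM at 5 h. The arms again overlapped at 3 h and not at 5 h, and the log2 change of 0.18 did not pass (edgeR adjusted p 0.113). The difference of the cycloheximide effect between pretreatments, over 1 to 5 h, passed for none of the 5 genes and for 7.15% of all genes. For ETS1 it was −0.29 on the log2 scale, with a 95% interval from −0.50 to −0.09 and an edgeR adjusted p of 0.0748, which became 0.0476 when only the groups of the contrast were fitted.

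The triptolide arm asked how much of each mRNA remains once transcription stops. Here libraries were scaled by 36 stable genes, none of them among the 5, that met the study's criteria at both 3 and 5 h. The study asks for 3 or 5 h, which 526 genes met, and that wider set was an alternative. Levels are given as percent of the mean of the vehicle libraries at 0 h of the same pretreatment. ETS2 was lost most, and in DMSO most of the mRNA of ETV4 and ETV5 was still there after 5 h. At 3 to 5 h, ETS2 and ETS1 passed in both pretreatments and ETV1, ETV4 and ETV5 in neither, where 50.0% of all genes passed in DMSO and 57.4% in MAPKi. Over all genes the median log2 change came to −0.47 in DMSO and −0.59 in MAPKi. Of the genes called, 2.61% were higher in DMSO and 2.23% in MAPKi, and with TMM these shares were 37.65% and 48.7%.

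**Figure D4:**
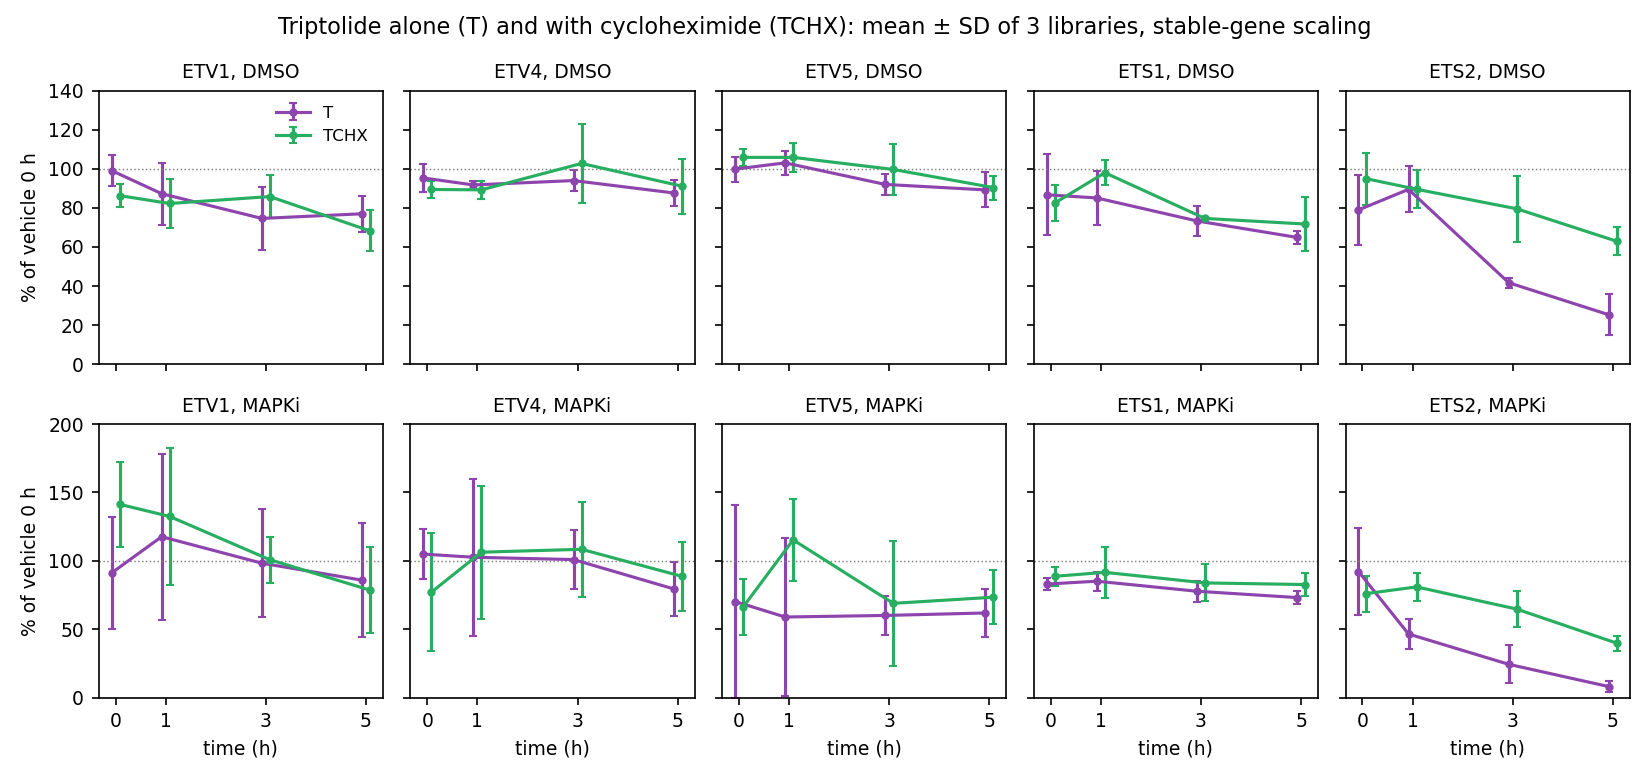
Percent of the vehicle level at 0 h that remained with triptolide alone (T, purple) and with cycloheximide as well (TCHX, green), as mean ± SD of 3 libraries after stable-gene scaling, DMSO above and MAPKi below. With T, ETS2 drops to 25.3% in DMSO and 8.21% in MAPKi at 5 h, and TCHX lies above T for ETS2 at 3 and 5 h. The bars of ETV1, ETV4 and ETV5 in MAPKi are wide because the counts are low.

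In DMSO, ETS2 kept 89.5% ± 11.8 of its vehicle level at 0 h after 1 h, 41.7% ± 2.49 after 3 h and 25.3% ± 10.5 after 5 h (SD, n = 3). In MAPKi it kept 46.6% ± 10.7, 24.5% ± 13.9 and 8.21% ± 4.30 (SD, n = 3). The 3 DMSO libraries at 1 h ran from 77.9% to 102%, the 3 MAPKi libraries from 35.6% to 57.0%, and those at 5 h, in the same order, from 13.3% to 32.7% and from 5.69% to 13.2%. The pretreatments thus did not overlap at 1 and 5 h, and the share of all genes with such a gap was not counted. At 3 h the ranges, 39.7% to 44.5% and 16.4% to 40.5%, overlapped. The counts behind the last MAPKi value were 6, 17 and 4. The log2 change over 3 and 5 h was −1.62 with a standard error of 0.19 in DMSO and −2.73 with a standard error of 0.24 in MAPKi (edgeR adjusted p 1.05e-11 and 5.8e-17). At 1 h ETS2 passed in MAPKi, at −1.08 with a standard error of 0.26 (edgeR adjusted p 0.0128), where 1.61% of all genes passed. It did not pass in DMSO, at −0.15 (edgeR adjusted p 0.879). These changes are measured from vehicle at 0 h, and vehicle moved as well. At 1 h ETS2 in vehicle was at 72.0% ± 14.4 in MAPKi and 90.9% ± 10.9 in DMSO (SD, n = 3). In MAPKi vehicle it was at 134% ± 28.8 after 3 h and 124% ± 29.2 after 5 h (SD, n = 3). Triptolide against vehicle of the same time was not tested. The MAPKi call at 1 h was lost without any 1 of the replicates, with edgeR adjusted p from 0.051 to 0.295.

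The difference of the triptolide effect between pretreatments at 1 h was −0.93 for ETS2, with a 95% interval from −1.61 to −0.26. After adjustment over all genes it did not pass (edgeR unadjusted p 0.00786, adjusted p 1), where 0.0134% of all genes did. For 3 and 5 h together this comparison was added after the values had been seen. There the difference of ETS2 was −1.11, with a 95% interval from −1.73 to −0.50, and it passed (edgeR adjusted p 0.0277), where 3.17% of all genes did (0.415% higher and 2.76% lower in MAPKi). Of these calls 13.1% were higher, and 41.0% with TMM. The call was lost without replicate 1 (edgeR adjusted p 0.53) and without replicate 3 (0.189), when only the groups of the contrast were fitted (0.237), with TMM (0.0931) and with the wider set of stable genes that follows the study's wording (0.056). None of the other 4 genes passed, and their differences lay between −0.49 for ETV5, with a 95% interval from −1.31 to 0.33, and 0.31 for ETV1, with a 95% interval from −0.45 to 1.07.

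ETS1 in DMSO was at 73.3% ± 7.49 after 3 h and 64.9% ± 3.29 after 5 h (SD, n = 3). In MAPKi it was at 77.9% ± 7.62 and 73.2% ± 4.72 (SD, n = 3). The log2 changes, −0.53 in DMSO and −0.40 in MAPKi (edgeR adjusted p 0.000166 and 0.00177), lay close to the median of all genes, at −0.06 and 0.18 relative to it. With TMM, which sets the typical gene to no change, they were −0.06 and 0.24 and did not pass (edgeR adjusted p 0.755 and 0.0708), so that ETS1 changed sign in MAPKi under that scaling.

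For the PEA3 genes no change with triptolide passed in the fit over all libraries. In DMSO, ETV5 kept 92.0% ± 5.30 at 3 h and 89.2% ± 8.92 at 5 h, and ETV4 93.9% ± 5.25 and 87.6% ± 6.87 (SD, n = 3 each). Their log2 changes of −0.14 each were 0.33 above the median of all genes and did not pass (edgeR adjusted p 0.475 and 0.484). ETV1 kept 74.6% ± 16.2 and 76.96% ± 9.33 (SD, n = 3), with −0.40 (edgeR adjusted p 0.141). It passed when only the groups of the contrast were fitted (edgeR adjusted p 0.0308), and it was 0.08 with TMM. In MAPKi, where few counts were left, the libraries at 5 h ran from 51.0% to 82.2% for ETV5, from 60.8% to 100.3% for ETV4 and from 55.8% to 133% for ETV1, and a change of this size was not detectable at this depth.

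With triptolide 50.0% of all genes were called in DMSO and 57.4% in MAPKi, most of them lower. Of the 16 other ERK output genes tested, 13 were lower and none higher in DMSO at 3 to 5 h, with a median log2 change of −2.82. In MAPKi 12 were lower and 1 higher, with a median of −2.53. Of the 15 other ETS genes tested, 9 were lower and 1 higher in DMSO, with a median of −1.10, and 10 and 1 in MAPKi, with a median of −1.18. These counts of 10 and 11 of 15 stand beside the same backgrounds, and the lists were not counted with TMM, under which the split of all calls moved as given above. In DMSO, ETV4 and ETV5, at −0.14, were above both medians and ETS2, at −1.62, was between them. In MAPKi, ETS2 was below both medians, at −2.73.

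The combination of both inhibitors asked how much of the loss requires ongoing translation. At 3 to 5 h, ETS2 was higher with TCHX than with T in both pretreatments, and none of the other 4 genes passed. The background was 28.9% of all genes in DMSO and 42.0% in MAPKi. Of these calls 98.4% and 98.7% were higher with TCHX, and with TMM 68.2% and 55.5%. With TCHX, ETS2 in DMSO was at 79.5% ± 17.0 after 3 h and 62.9% ± 7.12 after 5 h (SD, n = 3). In MAPKi it was at 64.8% ± 13.1 and 39.9% ± 5.55 (SD, n = 3). At 3 and 5 h every TCHX library lay above every T library of the same time and pretreatment, with 56.1% to 70.3% against 13.3% to 32.7% at 5 h in DMSO and 34.2% to 45.3% against 5.69% to 13.2% in MAPKi. The log2 change was 1.12 with a standard error of 0.16 in DMSO and 1.76 with a standard error of 0.22 in MAPKi (edgeR adjusted p 2.41e-08 and 1.09e-10), against a median of all genes of 0.23 and 0.34. At 1 h the change of ETS2 was −0.01 in DMSO and 0.79 in MAPKi, and neither passed (edgeR adjusted p 1 and 0.26), where 0.0401% and 0.368% of all genes did. The difference between pretreatments at 3 to 5 h was 0.65, with a 95% interval from 0.11 to 1.19, and did not pass (edgeR adjusted p 0.163), where 7.11% of all genes did. Of these calls 95.9% were higher, and 76.1% with TMM.

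For the other 4 genes no difference between TCHX and T passed. ETS1 moved by 0.09 in DMSO and 0.14 in MAPKi, ETV4 by 0.09 and 0.15, ETV5 by 0.06 and 0.16, and ETV1 by 0.02 and −0.03 on the log2 scale (edgeR adjusted p from 0.242 to 0.973). All of these lie below the median of all genes in the same pretreatment. With TMM, ETS1 in MAPKi was −0.25 and passed (edgeR adjusted p 0.0247). Of the other ERK output genes 12 of 16 were higher with TCHX than with T in DMSO and none lower, and 8 and none in MAPKi, with median log2 changes of 1.61 and 1.04. Among the 15 other ETS genes 6 were higher in DMSO, and 8 higher and 1 lower in MAPKi. The counts of both lists stand beside 28.9% of all genes called in DMSO and 42.0% in MAPKi, and they were not counted with TMM.

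Measured against vehicle at 0 h, what was left with both inhibitors at 3 to 5 h was lower for ETS1 and ETS2 in DMSO and for ETS2 in MAPKi, where 23.6% and 19.5% of all genes passed (5.71% and 6.18% of these calls were higher, and 31.95% and 47.97% with TMM). The log2 change of ETS2 was −0.50 in DMSO and −0.97 in MAPKi (edgeR adjusted p 0.0416 and 0.00041), and that of ETS1 was −0.44 in DMSO (edgeR adjusted p 0.00471). The DMSO call of ETS2 was lost without any 1 of the replicates (edgeR adjusted p from 0.0766 to 0.301) and with TMM (0.398), as was that of ETS1 with TMM (0.288).

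A further comparison, also added after the values had been seen, set TCHX against CHX at 3 to 5 h, where translation was blocked in both arms and transcription in 1 of them. ETS1 and ETS2 were lower with TCHX in both pretreatments, and no PEA3 gene passed, against a background of 46.2% of all genes in DMSO and 57.4% in MAPKi, of which 7.17% and 3.26% were higher, and 46.2% and 52.8% with TMM. ETS1 at 5 h in DMSO had 53.1, 40.7 and 41.3 CPM with TCHX, all below the CHX libraries of that time given above. After stable-gene scaling its log2 change was −1.60 in DMSO and −0.80 in MAPKi (edgeR adjusted p 1.73e-24 and 1.47e-11). That of ETS2 was −1.17 and −2.05 (edgeR adjusted p 5.93e-10 and 1.33e-17). The median of all genes was −0.34 in DMSO and −0.52 in MAPKi, and ETV4, at 0.23 in both, lay above it (edgeR adjusted p 0.145 and 0.399). With TMM, ETV4 was called higher at 0.59 in DMSO and 0.80 in MAPKi (edgeR adjusted p 4.42e-05 and 0.00209), and ETV5 in DMSO at 0.54 (edgeR adjusted p 0.000295). Total counts gave the same 3 calls (0.58, 0.55 and 0.53, edgeR adjusted p 7.44e-05, 0.04 and 0.000418). Without replicate 2, ETV4 passed in DMSO at 0.32 and ETV5 was called lower in MAPKi at −1.23 (edgeR adjusted p 0.0468 and 0.00113).

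The study's index of translation-dependent decay (TDD index) is the level with TCHX minus that with T, divided by the vehicle level at 0 h, and was averaged here over 3 and 5 h, with libraries of 1 replicate number joined. For ETS2 it was 0.298, 0.381 and 0.465 in DMSO and 0.337, 0.353 and 0.385 in MAPKi. The means of 0.382 ± 0.0833 and 0.358 ± 0.0247 (SD, n = 3) gave an exact permutation p of 0.8 (two-sided, where 0.1 is the smallest that 3 against 3 can give). For ETS1, ETV4 and ETV1 the index lay on both sides of 0 among the 3 values. It was 0.0382 ± 0.0764 in DMSO and 0.0741 ± 0.109 in MAPKi for ETS1, 0.0625 ± 0.119 and 0.0565 ± 0.147 for ETV4, and 0.0116 ± 0.116 and −0.0237 ± 0.103 for ETV1 (SD, n = 3 each, exact permutation p from 0.5 to 0.8). No index was formed for ETV5, because a MAPKi library at 0 h had 9 counts, under the minimum of 10.

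Over all 32 groups, the order of the levels on the TMM scale was set first by the pretreatment. For ETV1, ETV4 and ETV5 the 16 DMSO groups took the upper 16 places, and for ETS1 the 16 MAPKi groups did. For ETS2, 14 DMSO groups and 2 MAPKi groups, those with CHX at 3 and 5 h, were in the upper 16, and the DMSO groups with T at 3 and 5 h had dropped below them. The group means of ETS2 ran from 41.1 ± 5.23 CPM with CHX at 5 h in DMSO to 1.39 ± 0.702 CPM with T at 5 h in MAPKi (SD, n = 3). Those of ETS1 ran from 176 ± 10.0 CPM with T at 5 h in MAPKi to 42.5 ± 4.69 CPM with TCHX at 0 h in DMSO (SD, n = 3). On the stable-gene scale the highest group of ETS1 was instead CHX at 5 h in MAPKi, at 240.5 ± 12.7 (SD, n = 3), and the lowest T at 5 h in DMSO, at 35.6 ± 1.81. On that scale the ETS1 mean with CHX at 5 h in DMSO also stood above those of several MAPKi groups. Among these were T at all 4 times and TCHX at 3 and 5 h. The split of ETS1 by pretreatment was thus not complete there. Neighbours in the order mostly could not be told apart by their libraries. Their ranges overlapped in 30 of 31 neighbouring pairs for ETV1, 29 of 31 for ETV4 and for ETV5, 28 of 31 for ETS2 and 27 of 31 for ETS1. For ETS1 the 4 gaps set off the DMSO groups with CHX at 5 h, CHX at 3 h, vehicle at 3 h and vehicle at 5 h, in that order, from each other and from the rest of the DMSO groups.

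The 3 PEA3 genes shared a pattern over the 32 group means. Pearson's r of mean log2 CPM was 0.991 between ETV4 and ETV5, 0.987 between ETV1 and ETV4 and 0.980 between ETV1 and ETV5. ETS1 had r from −0.927 to −0.925 with them, and ETS2 from 0.671 to 0.746. These are descriptions over 32 groups that share libraries, depth and the split by pretreatment. The genes with the most similar pattern were SLC26A2, AHSA1 and UGP2 for ETV1 (r 0.992, 0.991 and 0.990), MGLL, UGP2 and GJB1 for ETV4 (0.997, 0.996 and 0.996), FGFRL1, CMTM7 and ITGB3 for ETV5 (0.994 each), TRIM58, MCC and ESRP1 for ETS1 (0.982, 0.975 and 0.972) and FBXO45, KANK1 and PIM3 for ETS2 (0.979, 0.966 and 0.966).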

How the data were processed

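RNA of the cytoplasm of A375 cells was sequenced in 96 QuantSeq libraries, each from 500 ng of RNA. The authors deposited raw counts, that is, numbers of reads per gene with no normalization. Their processing notes and methods name fastp (0.20.1), HISAT2 (2.2.1), htseq-count (0.13.5) and GRCh38.p13. The strand setting of the counting is not given in the sources used here, and 0 spike-in entries were found in the table used.

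Groups came from the labels. The genes and gene lists were chosen with earlier results of these data known. Counts were tested with edgeR (4.0.16, R 4.3.3) by quasi-likelihood over all 96 libraries with 1 mean per group, for 14948 genes kept by filterByExpr, and p-values were adjusted by Benjamini-Hochberg over all of them (threshold 0.05). TMM scaling was used, and for triptolide contrasts size factors from 36 stable genes (in every replicate of both pretreatments above 0.2 CPM at first, at least 1.1 times that with triptolide at both 3 and 5 h, and above 0.1 times the later level at first). This is stricter than the study's rule, which asks for 3 or 5 h and gave 526 genes here, used as an alternative. Genes other than the 5 were named as the up to 4 called members with the largest change of each list. Similar genes were the 3 with the highest Pearson's r of mean log2 CPM (offset 0.5) over the groups. The TDD index was tested by exact permutation in SciPy (1.17.1). The main script was tested on simulated data. Alternatives were other scalings, no filter, DESeq2 (1.42.0), single replicates left out, a replicate block and other initial levels. Total counts of 2381351 to 12520154 limit genes with few reads.

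Replicate pairs differed beyond sampling noise (chi-square per degree of freedom 3.08 to 16.2, Pearson's r 0.953 to 0.987), so that no library was counted as a copy. Promoters are from RefSeq (GRCh38.p14) and gene positions from GENCODE (GRCh38).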

Additional observations from a re-analysis of the deposited data

Results flagged for a closer look

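The loss of ETS2 with triptolide over 3 and 5 h differed between pretreatments by a test of the difference itself. The difference (MAPKi minus DMSO) was −1.11 on the log2 scale in edgeR, with an adjusted p of 0.0277, and ETS2 was at 4, 6 and 17 counts in the MAPKi libraries with triptolide at 5 h. This comparison was added after the values had been seen, and the call was lost in 5 of its alternatives, among them leaving out replicate 1 or replicate 3 and using the wider set of stable genes, which is nearer to the wording of the study.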

How the results depend on the processing

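The calls of all 5 genes for MAPKi against DMSO in the vehicle arm kept their direction and their side of the threshold in every alternative run, also at 0 h alone, where 6867 genes passed against 10311 over all times. Other calls moved as follows, and the cause was not tested. For CHX at 3 to 5 h in DMSO, 1 to 4 of the 5 genes were called with 1 replicate left out, against 4 in all. For CHX at 3 to 5 h in MAPKi, 2 were called without the filter and 2 with DESeq2, against 1, with ETV5 as the added gene, and with 1 replicate left out 1 gene was called each time but not the same one, ETV5 without replicate 1, ETS2 without replicate 2 and ETV1 without replicate 3, where ETV1 ran from −0.23 to 0.92. For the difference of the CHX effect between pretreatments, 1 was called when only the groups of the contrast were fitted, against 0. For T at 3 to 5 h in DMSO, 1 was called with TMM and 1 with total counts, against 2, and 4961 and 4602 genes in all against 7468, and ETV1 turned to 0.08 with TMM and passed, at −0.40, when only the groups of the contrast were fitted. For T at 1 h in MAPKi, 0 were called with any replicate left out, with only the groups of the contrast, with TMM and with the own arm at 0 h as the initial level, against 1. For T at 3 to 5 h in MAPKi, 1 to 2 were called with 1 replicate left out, and 1 each with TMM, total counts and the own arm at 0 h, against 2, and ETS1 turned to 0.24 with TMM. For TCHX against T at 3 to 5 h in MAPKi, 2 were called with TMM, against 1, and ETS1 turned to −0.25 with TMM and −0.09 with total counts. For TCHX against vehicle at 0 h in DMSO, 1 was called with any replicate left out, without the filter, with only the groups of the contrast and with the wider set of stable genes, and 0 with TMM, total counts and the own arm at 0 h, against 2. For the same comparison in MAPKi, 0 were called with the own arm at 0 h, against 1.

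Among the comparisons added after the values had been seen, the difference of the T effect at 3 to 5 h kept 0 to 1 call with 1 replicate left out and 0 with only the groups of the contrast, TMM and the wider set of stable genes, against 1. TCHX against CHX gave 4 calls in DMSO with TMM and 4 with total counts, against 2, with ETV4 and ETV5 as the added genes. In MAPKi, ETV5 ran from −1.23 to 0.37 and ETV4 from −0.03 to 0.50 with 1 replicate left out, and ETV5 was 0.13 with TMM. Single genes that passed neither an unadjusted p of 0.05 nor the threshold in any alternative were not followed.

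Replicate numbers are shared between groups, but the labels do not say what a number stands for. The deviations of same-numbered libraries from their group means correlated from −0.626 to 0.655 (median 0.0538), with 38.0% of pairs above 0.1, and 63 of 96 libraries correlated best with their own number. With a replicate block, 5 of the 5 genes were called for MAPKi against DMSO, 4 for CHX at 3 to 5 h in DMSO and 1 in MAPKi, 2 for T at 3 to 5 h in either pretreatment and 1 for TCHX against T in either, and the block changed no call of the 5 genes. The TDD difference of ETV1, ETV4 and ETS1 moved to −0.21, −0.16 and −0.10 with TMM. Depth limits ETV5 most, which had 0 to 41 counts in the MAPKi libraries.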
